A study of Mus musculus with 19 samples.

Results

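Collagen genes encode the chains of the collagens, and here they are the genes whose symbols consist of Col, a type number, the letter a and a chain number. The rule found 44 genes among the 55416 of the count table, and 43 of them had enough reads to be tested. Col10a1, a cartilage network collagen read 72 times over all libraries, was not tested. The groups came from C57BL6 mice in which Cre recombinase was driven by the neuronal Synapsin1 promoter. WT mice, EZH2(+/+);Syn1Cre(+/-), carried Cre and kept both EZH2 alleles, and EZH2nHom mice, EZH2(-/-);Syn1Cre(+/-), had lost both EZH2 alleles in neurons. Each genotype received saline, or repeated low doses of kainate until status epilepticus, and hippocampus was taken 4 days later. WT gave 5 libraries for each treatment, and EZH2nHom gave 5 after saline and 4 after kainate. The tissue label is R. Hippocampus, the study design speaks of whole hippocampi, and the age of the mice is not given in the sources used here.

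Collagens are triple helices of chains that fold in the endoplasmic reticulum, are modified there by prolyl and lysyl hydroxylases, and are secreted into the extracellular matrix. Fibril-forming collagens build the ropes of connective tissue, fibril-associated collagens coat or bridge them, and type IV collagen forms the sheet of every basement membrane. Healthy brain tissue holds little fibrillar collagen, and most of what it has lies in meninges and around vessels, whereas type IV collagen surrounds all capillaries and some transmembrane collagens are made by neurons.

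Libraries held 24496685 to 43948317 gene reads. Ezh2, the targeted methyltransferase gene, stood at 9.61 to 12.9 CPM (read counts relative to library size, scaled by edgeR's TMM) in WT saline and 11.8 to 15.5 CPM in EZH2nHom saline libraries. It was thus not lower in the libraries labelled EZH2nHom (log2 difference 0.27 ± 0.16 SE, adjusted p = 0.288, edgeR's quasi-likelihood test with Benjamini-Hochberg adjustment). A gene-wide count from whole tissue does not check a deletion of part of the gene in neurons alone. Markers of hippocampal principal neurons summed to 539 to 1065 CPM in every library. EZH2nHom kainate replicate 2 stood apart on the second principal component (-108.5, against -18.995 to 27.5 in the other libraries). Collagen gene calls that rest on it are therefore given with and without it, while counts for lists of other genes include it. The labels do not say that each library is a separate animal, so p-values measure the spread between libraries. In whole tissue, a change in the number of cells of a type and a change in RNA per cell cannot be told apart.

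Several collagen genes lie beside each other, and 2 pairs of type IV genes are divergent, each pair with its transcription starts close together. Their promoter windows are shown because the 2 members of each pair are compared with each other in every library. The sequences are RefSeq promoters of build GRCm38.p6, from 250 bases before to 50 bases after the start, written 5′ to 3′ on the gene's own strand. Capitals mark matches on either strand to the GC box GGGCGG, the CCAAT box CCAAT, the TATA box TATAAA and the AP-1 site TGANTCA. Col4a1, at chr8:11312777-11313076 (- strand), and Col4a2, at chr8:11312555-11312854 (+ strand), start 21 bases apart, and their windows overlap.
Col4a1: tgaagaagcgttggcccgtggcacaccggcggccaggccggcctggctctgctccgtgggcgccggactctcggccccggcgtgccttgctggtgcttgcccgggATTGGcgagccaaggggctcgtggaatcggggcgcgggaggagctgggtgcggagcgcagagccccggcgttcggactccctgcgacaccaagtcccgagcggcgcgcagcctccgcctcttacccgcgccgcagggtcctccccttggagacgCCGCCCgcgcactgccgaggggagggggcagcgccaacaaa
Col4a2: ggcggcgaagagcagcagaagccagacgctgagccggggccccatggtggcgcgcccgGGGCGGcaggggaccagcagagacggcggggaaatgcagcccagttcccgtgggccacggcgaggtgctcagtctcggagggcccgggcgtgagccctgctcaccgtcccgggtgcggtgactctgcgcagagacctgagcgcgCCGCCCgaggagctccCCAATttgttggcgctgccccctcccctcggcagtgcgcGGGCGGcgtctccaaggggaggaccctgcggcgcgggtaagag
Col4a5, at chrX:141475169-141475468 (+ strand), and Col4a6, at chrX:141474027-141474326 (- strand), start 1343 bases apart.
Col4a5: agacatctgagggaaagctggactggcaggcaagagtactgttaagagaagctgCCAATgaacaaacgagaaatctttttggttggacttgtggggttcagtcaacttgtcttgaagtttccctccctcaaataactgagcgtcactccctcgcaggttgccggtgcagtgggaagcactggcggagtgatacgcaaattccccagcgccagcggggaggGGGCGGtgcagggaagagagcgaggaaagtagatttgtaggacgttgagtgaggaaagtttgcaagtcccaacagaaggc
Col4a6: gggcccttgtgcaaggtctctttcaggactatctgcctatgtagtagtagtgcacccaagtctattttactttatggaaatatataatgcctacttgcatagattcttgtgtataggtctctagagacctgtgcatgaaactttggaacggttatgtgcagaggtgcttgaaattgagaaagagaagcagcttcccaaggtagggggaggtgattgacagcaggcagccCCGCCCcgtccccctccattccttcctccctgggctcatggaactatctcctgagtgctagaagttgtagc
The GC box was matched in all 4 windows (3 times in that of Col4a2), and the CCAAT box in those of Col4a1, Col4a2 and Col4a5. The TATA box and the AP-1 site were matched in none of the 4. Among 32544 mouse promoter windows of the same length, 35.9% held the GC box, 37.4% the CCAAT box, 13.6% the TATA box and 7.79% the AP-1 site. The Col4a1 and Col4a2 windows were 74% and 73.7% G or C, against 52.7% for Col4a5, 48.3% for Col4a6 and a median of 53% over all windows. A match describes the letters only. The table held a promoter for 35 of the 44 genes and none for Col12a1, Col14a1, Col1a1, Col22a1, Col26a1, Col2a1, Col4a3, Col5a2 and Col9a3.

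The first question was which collagen genes differed 4 days after kainate. In WT, 10 of the 43 tested genes rose and 2 fell, which is 27.9%, where 12% of all 19234 genes tested were called (9.47% higher and 2.57% lower). In EZH2nHom, 15 rose and 6 fell, which is 48.8%, where 26.1% of all genes were called (14.3% higher and 11.8% lower). A gene was called when its adjusted p in edgeR's quasi-likelihood test was under 0.05. The median log2 change over the collagen genes was 0.39 in WT and 0.20 in EZH2nHom, where that over all genes was -0.02 in both. Rises were found among fibril-forming, fibril-associated, type IV and beaded-filament genes in both genotypes, in the anchoring fibril gene Col7a1 in WT and in the membrane-spanning Col13a1 in EZH2nHom. In WT only 1 of 6 type IV genes and 1 of 6 beaded-filament genes rose. The main components of scar collagen, Col1a1 and Col1a2, passed in neither genotype.

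The 2 kainate comparisons share no library. Col11a1, Col16a1, Col20a1, Col2a1, Col4a6, Col5a2, Col6a1 and Col9a2 rose in both, which is 80% of the genes that rose in WT and 53.3% of those that rose in EZH2nHom. Col19a1 and Col25a1 fell in both, which is 100% of the WT falls and 33.3% of the EZH2nHom falls. The matching shares over all genes were not computed, so this overlap is not read as particular to collagen genes. Col3a1 and Col7a1 passed in WT alone, and 11 genes passed in EZH2nHom alone, but no collagen gene passed a test of the difference between the responses. The kainate and saline libraries did not overlap in CPM for 9 genes that were higher and 2 that were lower in WT (20.9% and 4.65% of the members, where 9.79% and 4.63% of all genes did). In EZH2nHom 12 were higher and 3 lower without overlap (27.9% and 6.98%, where 9.93% and 9.23% of all genes did). Outside the called genes these were Col11a2 and Col27a1 in WT and Col4a5 in EZH2nHom.
Small structural RNAs such as Rn7sk also moved with treatment in WT, at 283 to 561 CPM after saline and 414 to 1700 CPM after kainate. With their share as a covariate 3 genes were called in WT (Col20a1, Col4a6 and Col25a1), and 0 in the 6 WT libraries whose sample code prefix occurs in both arms, with the prefix as a block. Those 6 were saline replicates 2 and 4 and kainate replicates 1 to 4. Even Col20a1 had an adjusted p of 0.408 there (edgeR's quasi-likelihood test). So few saline libraries leave that fit little power. WT kainate replicates 3 and 4 held the highest levels of many members and lay at 61.5 and 84.6 on the first principal component, against -2.79 to 15.4 in the other WT kainate libraries. Without replicate 3 the WT count was 7 (5 higher and 2 lower). Without EZH2nHom kainate replicate 2 the EZH2nHom count was 14, with 11 higher and 3 lower, and the WT count, which shares its estimate of the spread, was 16. With the fibroblast and leptomeningeal marker level as a covariate, 13 were called in EZH2nHom (10 higher and 3 lower).

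**Figure D1:**
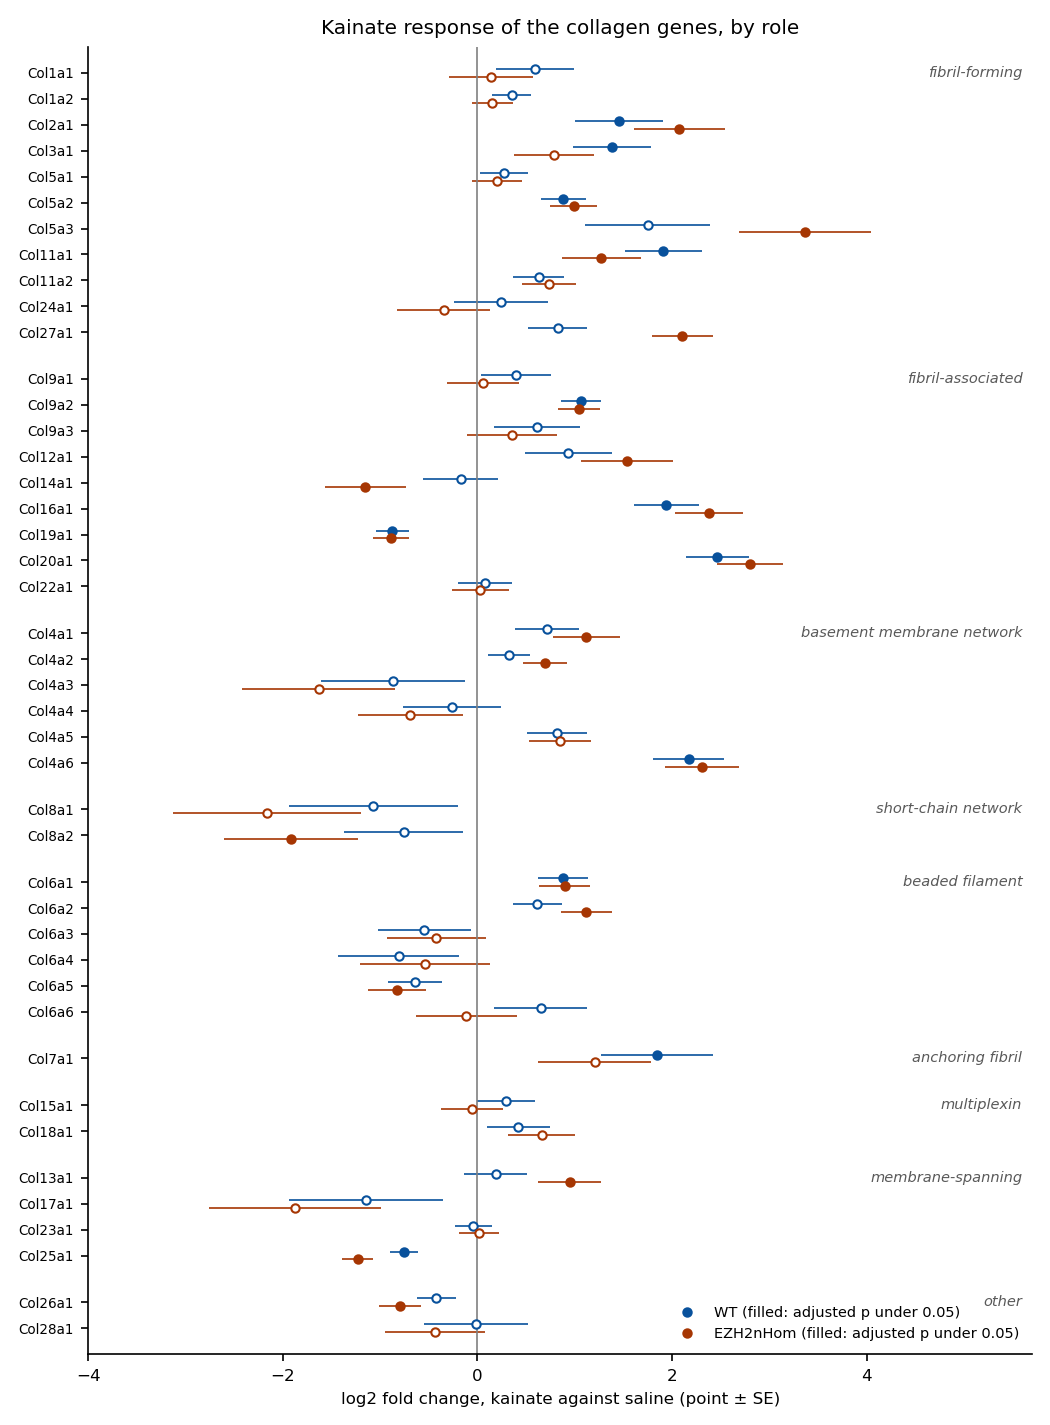
Log2 fold change (kainate against saline, horizontal axis, point ± SE) of the 43 tested collagen genes in WT (blue, 5 against 5 libraries) and EZH2nHom (brown, 4 against 5), grouped by role. Filled points passed at adjusted p under 0.05; Col20a1, Col16a1 and Col4a6 sit at or beyond 1.94 in both genotypes, and the points of Col1a1 and Col1a2 are open in both genotypes.

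Among the 9 fibril-associated genes, whose products sit on the surface of larger fibrils and carry interrupted triple helices, 3 rose and 1 fell in WT and 4 rose and 2 fell in EZH2nHom. Col20a1 was read at 0.870, 1.22, 1.82, 1.45 and 1.07 CPM in the WT saline libraries and 2.30, 6.17, 8.24, 12.4 and 6.66 CPM in the WT kainate libraries. In the EZH2nHom libraries it stood at 0.975, 1.32, 1.63, 1.16 and 1.19 CPM after saline and 7.66, 7.08, 8.38 and 11.9 CPM after kainate. Every kainate library lay above every saline library of its genotype, with WT kainate replicate 1 the lowest of the treated ones. The log2 change was 2.46 ± 0.32 (SE) in WT and 2.80 ± 0.33 in EZH2nHom, with adjusted p of 0.000112 and 1.76e-05 (edgeR's quasi-likelihood test). Exons of Col20a1 share 79 bases, 1.54% of their length, with BX649560.1 on the same strand, which was read 7662 times against 2760 for Col20a1.

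Col16a1 encodes a collagen found at the border between fibrils and basement membranes. In WT, Col16a1 read 3.87, 3.67, 4.13, 4.28 and 5.12 CPM after saline and 6.49, 9.60, 28.7, 27.0 and 9.51 CPM after kainate. EZH2nHom libraries held 3.57, 4.26, 5.81, 4.47 and 5.02 CPM after saline and 19.9, 18.97, 23.4 and 34.0 CPM after kainate. No library of either genotype overlapped between treatments, and WT kainate replicates 3 and 4 were about as high as the EZH2nHom kainate libraries. Its log2 change was 1.94 ± 0.33 in WT and 2.38 ± 0.35 in EZH2nHom (edgeR adjusted p = 0.000754 and 8.60e-05).

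Col9a2 encodes 1 of the 3 chains of type IX collagen, which decorates type II fibrils of cartilage. Levels of Col9a2 in WT were 1.48, 1.47, 1.45, 1.45 and 1.66 CPM in saline and 2.78, 2.99, 3.99, 2.82 and 3.17 CPM in kainate libraries. Those in EZH2nHom were 1.68, 1.12, 2.10, 1.83 and 1.66 CPM in saline and 4.60, 2.02, 3.23 and 4.04 CPM in kainate libraries. The WT groups were tight and did not overlap, while EZH2nHom kainate replicate 2 fell within the saline range. This was a log2 change of 1.07 ± 0.21 in WT and 1.05 ± 0.21 in EZH2nHom (edgeR adjusted p = 0.00193 and 0.00146). Its partner chains did not pass: Col9a1 changed by 0.39 ± 0.36 and 0.06 ± 0.37 and Col9a3 by 0.62 ± 0.44 and 0.36 ± 0.46 on the log2 scale.

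Col12a1, whose product links fibrils to other matrix and is made in stretched or healing tissue, rose in EZH2nHom by 1.54 ± 0.47 (edgeR adjusted p = 0.0218). Its EZH2nHom kainate libraries read 21.3, 90.4, 16.4 and 23.3 CPM, against 9.55 to 16.2 CPM after saline, so replicate 2 was far above the other 3. Without that library the log2 change was 0.65 and did not pass. In WT, Col12a1 read 15.5, 13.3, 50.03, 40.6 and 13.2 CPM after kainate and 11.1 to 17.3 CPM after saline, a log2 change of 0.93 ± 0.45 that did not pass.

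Col19a1, which hippocampal interneurons use to form inhibitory nerve terminals, fell. WT saline libraries held Col19a1 at 20.8, 19.5, 18.7, 19.8 and 21.2 CPM, and WT kainate libraries at 13.2, 12.3, 8.89, 7.10 and 12.9 CPM. After saline EZH2nHom libraries read 20.5, 26.9, 22.5, 19.3 and 19.9 CPM, and after kainate 11.6, 16.7, 9.58 and 9.29 CPM. The groups did not overlap in either genotype. On the log2 scale the change was -0.88 ± 0.17 in WT and -0.89 ± 0.18 in EZH2nHom (edgeR adjusted p = 0.00193 and 0.00145). Of the 7 inhibitory neuron markers measured beside it, 1 rose and 1 fell in WT and 1 rose and 4 fell in EZH2nHom, with summed levels of 553 to 631 and 579.5 to 676 CPM after saline and of 493 to 589 and 427 to 732 CPM after kainate. EZH2nHom kainate replicate 2 held the 732 CPM, and the other EZH2nHom kainate libraries held 427 to 522 CPM. The part of these markers in the fall of Col19a1 was not tested. Col14a1, which binds the proteoglycan decorin on fibrils, fell in EZH2nHom (log2 change -1.15 ± 0.42, edgeR adjusted p = 0.0481), with 0.745 to 3.44 CPM after saline and 0.440 to 1.28 CPM after kainate. That call was lost in 16 of the 19 fits that each left out 1 library, with log2 changes of -1.26 to -0.92 and adjusted p of 0.0547 to 0.118 in those fits. Col22a1, of muscle and tendon junctions, changed by 0.08 ± 0.28 and 0.03 ± 0.29 and did not pass.

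**Figure D2:**
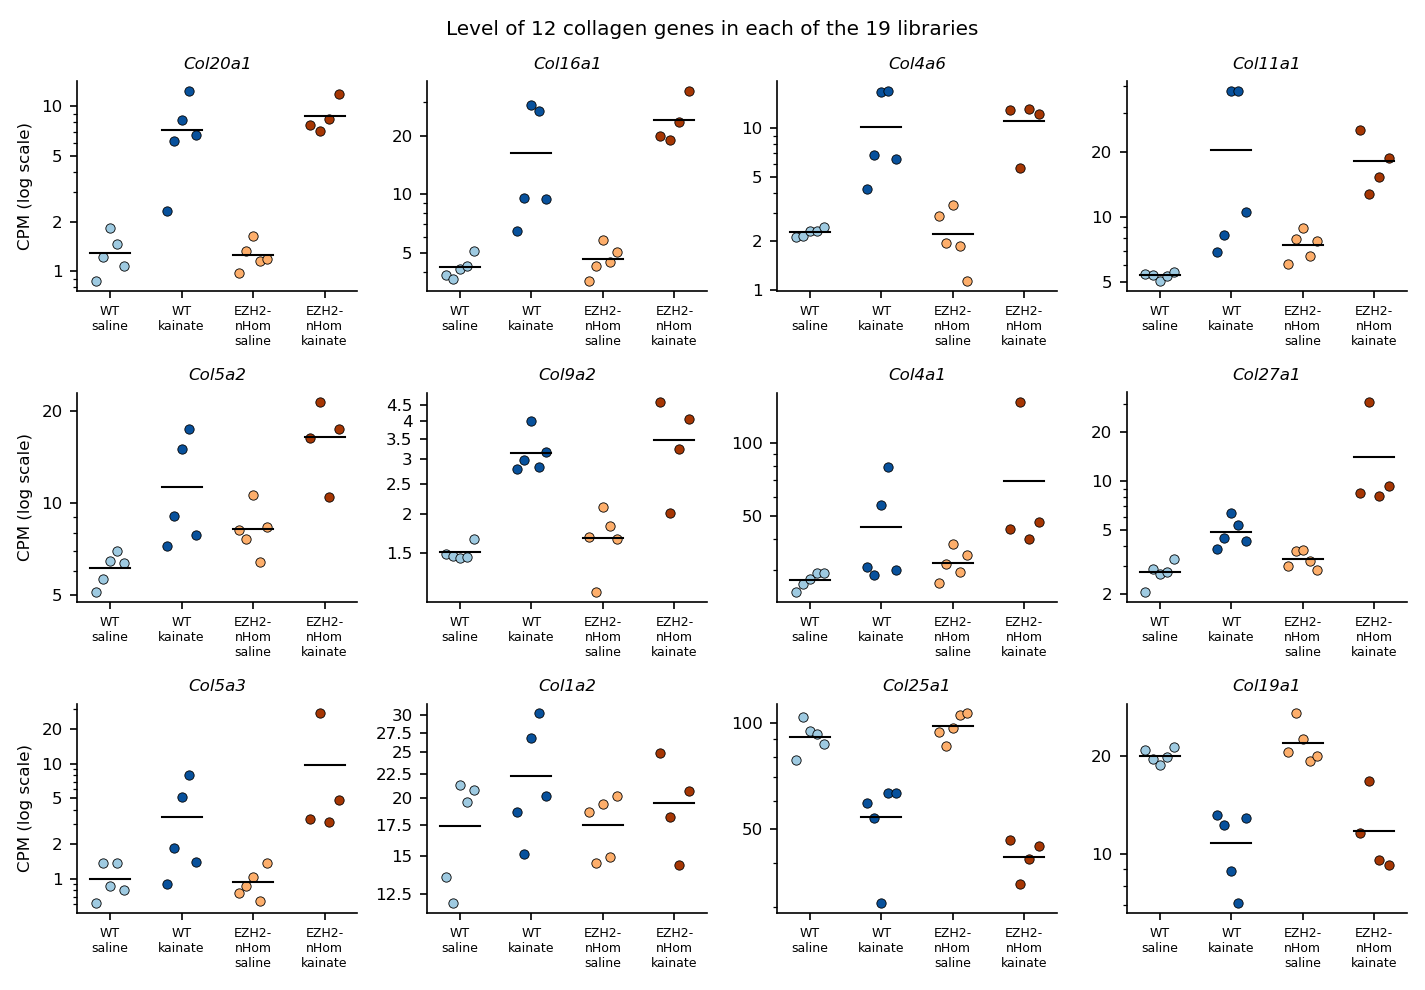
CPM on a log scale (vertical axis) of 12 collagen genes in each of the 19 libraries by group; points are libraries and bars are group means. Col20a1, Col16a1 and Col4a6 are higher in every kainate library than in any saline library of the same genotype, Col25a1 and Col19a1 are lower, Col1a2 overlaps, and 1 EZH2nHom kainate library lies far above its group for Col4a1, Col27a1 and Col5a3.

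Among the 11 fibril-forming genes, 4 rose in WT and 5 rose in EZH2nHom, and none fell. Col11a1 encodes a chain that nucleates thin fibrils. Col11a1 was read at 5.48, 5.41, 5.06, 5.33 and 5.602 CPM in the WT saline libraries and 6.91, 8.25, 37.8, 38.0 and 10.5 CPM in the WT kainate libraries. In the EZH2nHom libraries it stood at 6.09, 7.95, 8.86, 6.601 and 7.73 CPM after saline and 25.2, 12.8, 15.3 and 18.7 CPM after kainate. The groups did not overlap, but within WT kainate, replicates 3 and 4 were several times the other 3. The log2 change was 1.91 ± 0.40 in WT and 1.27 ± 0.41 in EZH2nHom (edgeR adjusted p = 0.00364 and 0.0265). Same-numbered WT libraries were taken as pairs from their correlations, not from a label. With the pair as a block the WT log2 change of Col11a1 was 1.54 and did not pass. In EZH2nHom the call was lost without saline replicate 1 or 4 or kainate replicate 1 or 4, each alone, with log2 changes of 1.10 to 1.26.

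Col11a2, a chain that pairs with Col11a1, read 9.89, 9.08, 10.01, 10.6 and 10.5 CPM after saline and 11.1, 16.6, 17.7, 14.0 and 18.1 CPM after kainate in WT. These ranges did not overlap, yet the log2 change of 0.63 ± 0.26 did not pass (edgeR adjusted p = 0.139). In EZH2nHom it was 0.74 ± 0.28 (edgeR adjusted p = 0.0557), where kainate replicate 2 had the lowest level of all 19 libraries at 5.80 CPM. Without that library the log2 change was 1.03 and passed. Col11a2 also passed in WT, at 0.62, under the replicate block.

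Col5a2 encodes a chain of type V collagen, which sets the diameter of type I fibrils. In WT, Col5a2 read 5.12, 5.66, 6.47, 7.004 and 6.36 CPM after saline and 7.26, 9.05, 15.1, 17.4 and 7.88 CPM after kainate. EZH2nHom libraries held 8.15, 7.66, 10.6, 6.45 and 8.38 CPM after saline and 16.3, 21.4, 10.5 and 17.5 CPM after kainate. Its log2 change was 0.88 ± 0.23 in WT and 0.99 ± 0.24 in EZH2nHom (edgeR adjusted p = 0.0160 and 0.00491). The WT groups did not overlap, and EZH2nHom kainate replicate 3 fell just within the saline range. In WT the call was lost without kainate replicate 3 or 4, with log2 changes of 0.75 and 0.68. Col5a1, the chain that most type V molecules need, changed by 0.27 ± 0.25 and 0.20 ± 0.26 and did not pass.

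Col5a3, a rarer type V chain, rose in EZH2nHom. Levels of Col5a3 in WT were 0.612, 1.38, 0.860, 1.37 and 0.795 CPM in saline and 0.896, 1.85, 5.12, 7.92 and 1.38 CPM in kainate libraries. Those in EZH2nHom were 0.758, 0.869, 1.04, 0.639 and 1.37 CPM in saline and 3.31, 27.7, 3.14 and 4.83 CPM in kainate libraries. In EZH2nHom every kainate library exceeded every saline library, and replicate 2 was the highest by far. The log2 change there was 3.37 ± 0.68 (edgeR adjusted p = 0.00140), and 2.001, still called, without replicate 2. In WT the log2 change was 1.75 ± 0.64 and did not pass, with overlapping groups, though it passed at 1.45 under the replicate block.

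Col27a1 encodes a fibrillar collagen best known from cartilage. WT saline libraries held Col27a1 at 2.06, 2.87, 2.68, 2.75 and 3.32 CPM, and WT kainate libraries at 3.81, 4.46, 6.39, 5.37 and 4.29 CPM. After saline EZH2nHom libraries read 2.98, 3.73, 3.73, 3.19 and 2.82 CPM, and after kainate 8.44, 30.9, 8.06 and 9.40 CPM. The treatments did not overlap in either genotype, and the EZH2nHom kainate libraries all lay above the WT kainate libraries. In EZH2nHom the log2 change was 2.10 ± 0.32 (edgeR adjusted p = 0.000101), and 1.39 without replicate 2. In WT it was 0.83 ± 0.30 and did not pass (edgeR adjusted p = 0.0844), though it passed at 0.82 under the replicate block.

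Col2a1, the main chain of cartilage fibrils, was scarce. It read 0.612, 0.275, 0.413, 0.620 and 0.207 CPM after saline and 0.512, 1.05, 2.25, 1.45 and 0.692 CPM after kainate in WT, where the groups overlapped. In EZH2nHom it read 0.352, 0.290, 0.237, 0.852 and 0.713 CPM and 2.21, 1.17, 1.43 and 3.52 CPM, without overlap. Its log2 change was 1.46 ± 0.46 in WT and 2.08 ± 0.46 in EZH2nHom (edgeR adjusted p = 0.0432 and 0.00282). The WT call was lost in 8 of the 19 fits without 1 library, with log2 changes of 1.09 to 1.60 and adjusted p of 0.0502 to 0.167 in those fits. With the structural RNA share as a covariate it was 0.52 and did not pass.

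Col3a1, which forms the fine fibrils of vessel walls and young scars, passed in WT. Col3a1 was read at 3.93, 4.04, 7.71, 7.81 and 7.23 CPM in the WT saline libraries and 5.89, 8.16, 25.5, 29.5 and 11.4 CPM in the WT kainate libraries. In the EZH2nHom libraries it stood at 12.5, 8.40, 11.5, 4.78 and 7.13 CPM after saline and 14.1, 23.8, 10.6 and 12.9 CPM after kainate. WT kainate replicates 3 and 4 were the highest and the groups overlapped. This was a log2 change of 1.38 ± 0.40 in WT (edgeR adjusted p = 0.0300) and 0.79 ± 0.41 in EZH2nHom, which did not pass. The WT call was lost without saline replicate 1 or 2 or kainate replicate 3 or 4, each alone, with log2 changes of 1.05 to 1.25. Col1a1 and Col1a2, the chains of the most abundant body collagen, ranged over 4.83 to 10.3 and 11.9 to 21.3 CPM in WT saline and 7.55 to 16.1 and 15.2 to 30.3 CPM in WT kainate libraries. Their log2 changes were 0.59 ± 0.41 and 0.35 ± 0.20 in WT and 0.14 ± 0.43 and 0.15 ± 0.21 in EZH2nHom, and none of these passed. Col24a1 did not pass either.

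Type IV collagen is built from 3 sets of partner chains. Of its 6 genes, Col4a6 rose in WT, and Col4a1, Col4a2 and Col4a6 rose in EZH2nHom. In WT, Col4a6 read 2.13, 2.14, 2.31, 2.32 and 2.46 CPM after saline and 4.19, 6.84, 16.8, 17.0 and 6.44 CPM after kainate. EZH2nHom libraries held 2.84, 1.95, 3.35, 1.86 and 1.13 CPM after saline and 13.0, 5.69, 13.2 and 12.3 CPM after kainate. Each kainate library was above each saline library of its genotype, with WT kainate replicates 3 and 4 the highest. On the log2 scale the change was 2.17 ± 0.36 in WT and 2.31 ± 0.38 in EZH2nHom (edgeR adjusted p = 0.000588 and 0.000215). Col4a5, its head-to-head partner, which also joins other type IV networks, changed by 0.82 ± 0.31 and 0.85 ± 0.32 and did not pass (edgeR adjusted p = 0.0917 and 0.0574). It passed in WT at 0.70 under the replicate block.

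Col4a1 and Col4a2 encode the 2 chains of the most widespread type IV collagen, that of capillaries. Levels of Col4a1 in WT were 24.2, 26.2, 27.5, 29.1 and 29.1 CPM in saline and 30.9, 28.4, 55.4, 79.2 and 29.9 CPM in kainate libraries. Those in EZH2nHom were 26.4, 31.5, 38.2, 29.4 and 34.4 CPM in saline and 44.1, 147, 40.3 and 47.2 CPM in kainate libraries. EZH2nHom kainate replicate 2 was far above every other library of its group, and WT kainate replicates 3 and 4 were above the other WT libraries. Col4a2 read 18.0, 17.6, 24.8, 22.3 and 24.05 CPM after saline and 29.0, 60.6, 22.5 and 26.3 CPM after kainate in EZH2nHom, again with replicate 2 the highest. In EZH2nHom the log2 change was 1.12 ± 0.34 for Col4a1 and 0.69 ± 0.23 for Col4a2 (edgeR adjusted p = 0.0224 and 0.0301). Without replicate 2 these were 0.45 and 0.28, and neither passed. The Col4a2 call was also lost without EZH2nHom saline replicate 1 or 2, at 0.64 and 0.63. In WT they were 0.72 ± 0.33 and 0.33 ± 0.22 and did not pass. Of 10 endothelial and 7 pericyte markers, 0 were called in either genotype by edgeR's test or the DESeq2 Wald test; at an unadjusted p under 0.05 there were 3 in WT (Flt1 lower, Rgs5 and Abcc9 higher) and 0 in EZH2nHom.

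The kidney and lung chains Col4a3 and Col4a4 changed by -0.87 ± 0.74 and -0.26 ± 0.51 in WT and by -1.63 ± 0.79 and -0.69 ± 0.54 in EZH2nHom, and none of these passed. Exons of Col4a3 share 5.65% of their length with C430014B12Rik on the opposite strand, and the sources used here do not say whether counting used strand.

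Partner chains were then compared within each library as log2 ratios of CPM, for 13 pairs in 2 contrasts. None of the 26 exact two-sided permutation tests passed after Benjamini-Hochberg adjustment (smallest adjusted p = 0.138), and 8 had an unadjusted p under 0.05. The smallest p that 5 against 5 libraries allow is 0.00794. The ratio of Col4a5 to Col4a6 reached it in WT, where it fell by 1.25, from 1.72 ± 0.29 (SD, n = 5) after saline to 0.47 ± 0.16 (SD, n = 5) after kainate (exact permutation p = 0.00794, adjusted p = 0.138). In EZH2nHom it fell by 1.41, from 1.86 ± 0.24 (SD, n = 5) to 0.46 ± 0.45 (SD, n = 4; exact permutation p = 0.0159, adjusted p = 0.138). The lowest saline ratio was 1.45 in WT and 1.54 in EZH2nHom, and the highest kainate ratio was 0.65 and 1.01, so the groups did not overlap. Without overlap, the p of each genotype is the smallest that this two-sided test gives at its group sizes. The ratio of Col4a1 to Col4a2 was 0.45 ± 0.07 after saline and 0.74 ± 0.32 after kainate in WT (SD, n = 5 each; exact permutation p = 0.0317, adjusted p = 0.155). In EZH2nHom it was 0.58 ± 0.16 (SD, n = 5) and 0.89 ± 0.28 (SD, n = 4; exact permutation p = 0.0952, adjusted p = 0.248). The ratio of Col5a1 to Col5a2 fell by 0.58 in WT and by 0.74 in EZH2nHom (exact permutation p = 0.0159 and 0.0476, adjusted p = 0.138 and 0.155).

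**Figure D3:**
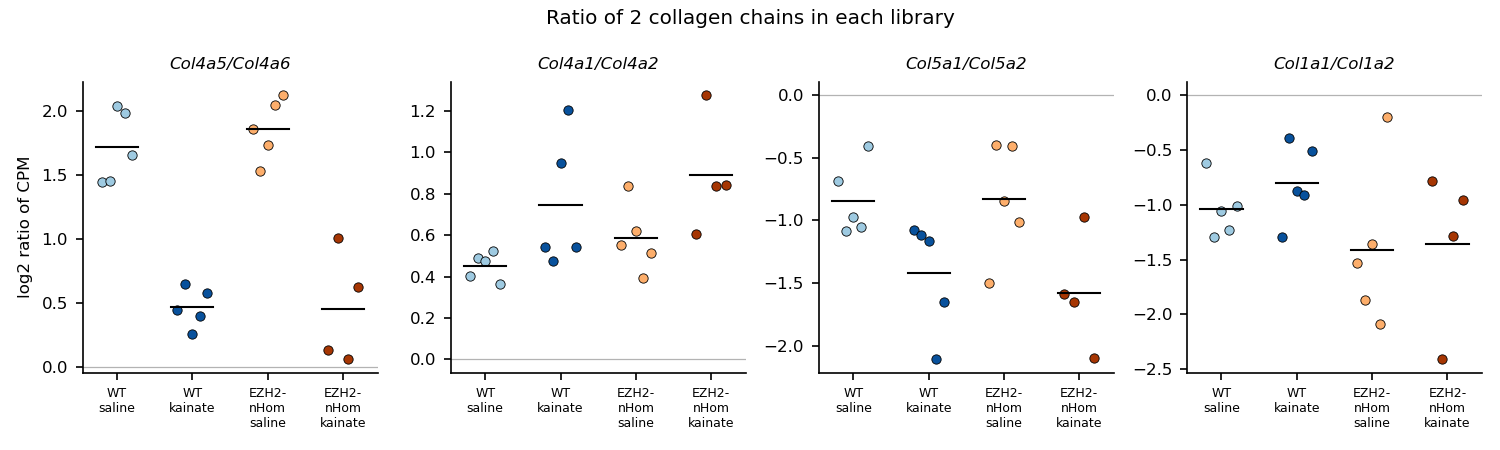
Log2 ratio of the CPM of 2 collagen chains (vertical axis) in each library by group; points are libraries and bars are group means. The Col4a5 to Col4a6 ratio is at least 1.45 in every saline library and at most 1.01 in every kainate library, while the Col1a1 to Col1a2 ratio overlaps between all groups.

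Of the 6 type VI genes, whose products form beaded filaments around cells, Col6a1 rose in both genotypes. WT saline libraries held Col6a1 at 7.89, 7.19, 11.2, 10.6 and 12.2 CPM, and WT kainate libraries at 17.1, 17.6, 19.8, 17.9 and 18.0 CPM. After saline EZH2nHom libraries read 12.7, 18.5, 19.7, 12.8 and 20.9 CPM, and after kainate 27.6, 59.3, 22.2 and 17.3 CPM. The WT groups did not overlap. In EZH2nHom, kainate replicate 4 lay within the saline range and replicate 2 was far above it. The log2 change was 0.88 ± 0.25 in WT and 0.90 ± 0.26 in EZH2nHom (edgeR adjusted p = 0.0293 and 0.0168). Without replicate 2 the EZH2nHom change was 0.40 and did not pass. The WT call was lost without saline replicate 1 or 2 or kainate replicate 3 or 4, each alone, with log2 changes of 0.78 to 0.88.

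Col6a2, the obligate partner of Col6a1 and its neighbour on chromosome 10, rose in EZH2nHom by 1.12 ± 0.26 on the log2 scale (edgeR adjusted p = 0.00386), with 3.47 to 6.33 CPM after saline and 6.62 to 15.8 CPM after kainate. In WT it changed by 0.61 ± 0.25, which did not pass, and passed at 0.59 under the replicate block. Col6a3, the third chain of the classical filament, changed by -0.55 ± 0.48 and -0.42 ± 0.51 and did not pass. Col6a5, an alternative to Col6a3, fell in EZH2nHom (log2 change -0.83 ± 0.30, edgeR adjusted p = 0.0467), with 1.93 to 2.90 CPM after saline and 0.844 to 1.98 CPM after kainate, and that call was lost in 14 of the 19 fits without 1 library, with adjusted p of 0.0591 to 0.106 in them. Col6a4 and Col6a6 did not pass.

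Col7a1, the anchoring fibril of skin, rose in WT, where it read 0.277 to 0.673 CPM after saline and 0.448 to 3.45 CPM after kainate, with kainate replicates 3 and 4 at 3.45 and 2.75 CPM and the other 3 within or near the saline range. Its log2 change was 1.85 ± 0.57 (edgeR adjusted p = 0.0402), and under the replicate block it was 1.60 and did not pass. The call was lost without any 1 of the 5 WT saline libraries or of WT kainate replicates 3 and 4, with log2 changes of 1.34 to 2.04 in those fits. The basement-membrane proteoglycans Col15a1 and Col18a1, whose ends release fragments that act on vessels, did not pass in either genotype.

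Among the 4 membrane-spanning collagens, Col25a1 fell in both genotypes and Col13a1 rose in EZH2nHom. Col25a1 is a neuronal transmembrane collagen whose shed part is found in amyloid plaques, and it was the most abundant collagen gene per length in WT saline libraries. Col25a1 was read at 78.2, 104, 94.5, 92.7 and 87.2 CPM in the WT saline libraries and 59.3, 53.5, 30.7, 63.2 and 63.3 CPM in the WT kainate libraries. In the EZH2nHom libraries it stood at 94.1, 85.8, 96.7, 105 and 106 CPM after saline and 46.4, 34.9, 40.9 and 44.5 CPM after kainate. All kainate libraries lay below all saline libraries of their genotype. Its log2 change was -0.76 ± 0.15 in WT and -1.23 ± 0.16 in EZH2nHom (edgeR adjusted p = 0.00184 and 2.93e-05). Of the 7 principal neuron markers, 2 fell in each genotype and none rose, and their part in the fall of Col25a1 was not tested.

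Col13a1, which clusters receptors at nerve-muscle junctions, read 0.244, 0.455, 0.385, 0.639 and 0.416 CPM after saline and 0.678, 0.917, 0.831 and 0.879 CPM after kainate in EZH2nHom. Its log2 change was 0.95 ± 0.33 (edgeR adjusted p = 0.0383), and the call was lost in 7 of the 19 fits without 1 library, with log2 changes of 0.79 to 0.97. Col17a1, of skin attachment plaques, and Col23a1 did not pass. Outside these classes, Col26a1 fell in EZH2nHom, where it read 1.98 to 2.32 CPM after saline and 0.734 to 1.57 CPM after kainate, a log2 change of -0.80 ± 0.21 (edgeR adjusted p = 0.00977), and Col28a1 did not pass.

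The short-chain network collagens Col8a1 and Col8a2, of vessel walls and the cornea, varied widely between libraries of 1 group. In WT, Col8a1 read 6.12, 2.57, 24.2, 31.0 and 2.80 CPM after saline and 11.6, 1.83, 12.4, 2.94 and 3.06 CPM after kainate. EZH2nHom libraries held 29.5, 2.52, 34.9, 36.8 and 2.11 CPM after saline and 3.14, 3.30, 9.47 and 2.87 CPM after kainate. Col8a2 ranged over 3.67 to 30.1 CPM in WT saline, 4.87 to 12.4 in WT kainate, 3.19 to 26.3 in EZH2nHom saline and 1.83 to 6.30 in EZH2nHom kainate libraries. Col8a2 passed in EZH2nHom at -1.92 ± 0.69 (edgeR adjusted p = 0.0478), a call lost in 14 of the 19 fits without 1 library, with adjusted p of 0.0509 to 0.112 in them. Col8a1 changed by -1.07 ± 0.87 and -2.17 ± 0.96 and did not pass.

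Their levels moved with those of the choroid plexus, the tissue that makes cerebrospinal fluid and lies against the hippocampus. The summed level of 8 choroid plexus markers, transthyretin among them, was 20.4 to 4009.6 CPM in WT saline, 30.5 to 1177 in WT kainate, 39.0 to 3775 in EZH2nHom saline and 13.6 to 694 in EZH2nHom kainate libraries. Each marker was read in every group. By edgeR's test 0 of the 8 were called in either kainate contrast, with median log2 changes of -1.30 in WT and -2.96 in EZH2nHom. In EZH2nHom 5 had an unadjusted p under 0.05 and the DESeq2 Wald test called 5, and in WT both counts were 0. Of the 10 saline libraries, 5 lay at 2686 to 4009.6 CPM and 5 at 20.4 to 424 CPM. Col8a1 was at 24.2 to 36.8 CPM in the first 5 and 2.11 to 6.12 CPM in the others. In all, 8 of the 43 collagen genes were higher in the first 5 without overlap (18.6%, where 2.92% of all genes were): Col8a1, Col8a2, Col4a3, Col4a4, Col4a5, Col9a3, Col14a1 and Col17a1. With the marker level as a covariate, the EZH2nHom log2 change was -0.38 for Col8a2, 0.25 for Col8a1, -0.42 for Col14a1 and 0.30 for Col4a3, none of which passed. It was 2.83 for Col20a1, 2.40 for Col16a1, 2.53 for Col4a6 and -1.25 for Col25a1, all called. Other rises in EZH2nHom were no longer called with this covariate: those of Col6a1, Col11a1, Col4a1, Col4a2, Col12a1 and Col13a1.

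**Figure D4:**
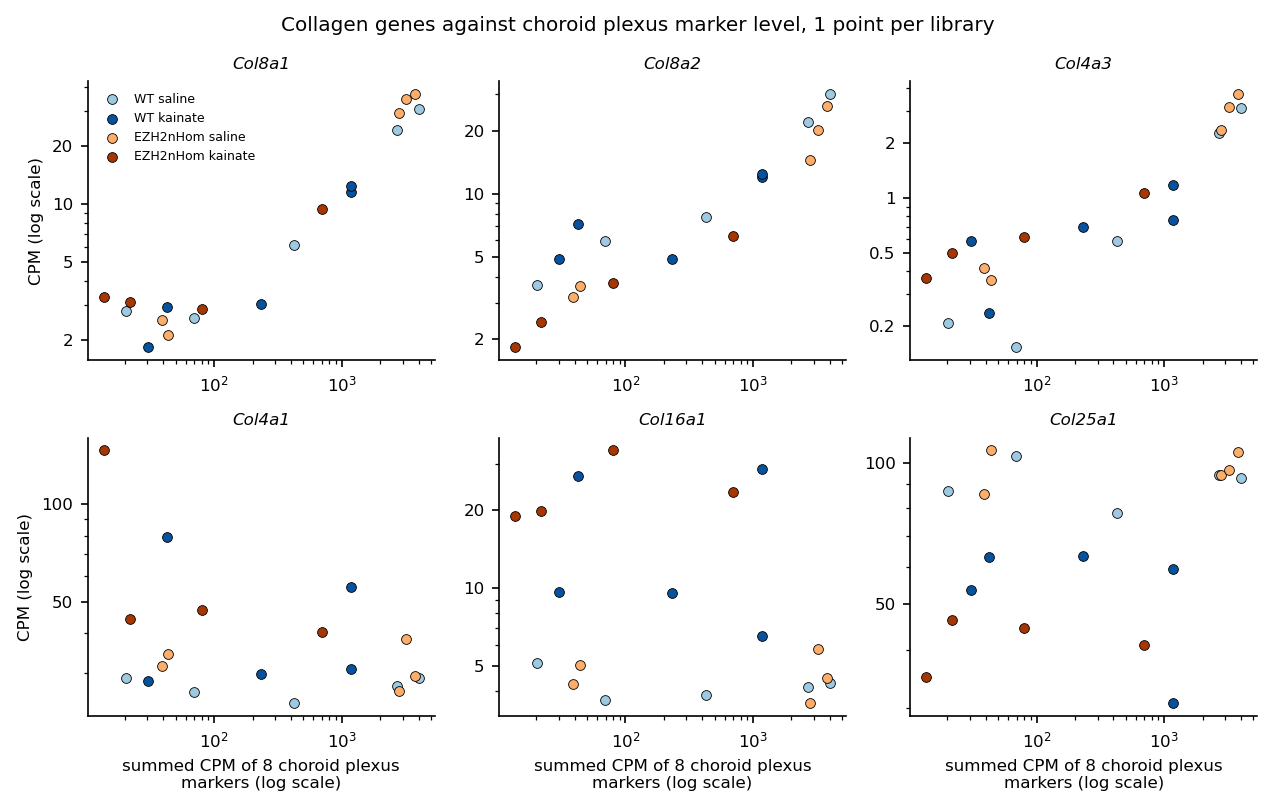
CPM of 6 collagen genes (vertical axis, log scale) against the summed CPM of 8 choroid plexus markers (horizontal axis, log scale), 1 point per library, colored by group. Col8a1, Col8a2 and Col4a3 are highest in the 5 saline libraries with over 2686 CPM of markers, whereas Col16a1 and Col25a1 separate by treatment across the marker range.

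Per kilobase of exon, the highest of the 44 genes in WT saline libraries were Col25a1 at 7.05 ± 0.72 CPM per kb (SD, n = 5), Col4a1 at 3.64 ± 0.28, Col8a2 at 3.10 ± 2.58, Col4a2 at 3.01 ± 0.26 and Col19a1 at 2.90 ± 0.15. The last 3 did not differ beyond their spread. The 5 lowest, from Col10a1 at 0.045 ± 0.017 through Col24a1, Col28a1 and Col7a1 to Col6a6 at 0.026 ± 0.012 CPM per kb, lay far below these. Col20a1, for all its rise, started at 0.25 ± 0.07 CPM per kb. The summed level of all 44 genes ran from 282 to 405 CPM in WT saline, 319 to 572 in WT kainate, 323 to 451 in EZH2nHom saline and 389 to 668 in EZH2nHom kainate libraries. These ranges overlap within each genotype. Col25a1 alone gave 22.9% to 33.6% of that sum in WT saline and 5.86% to 18.7% in WT kainate libraries, and in EZH2nHom 21.4% to 28.6% and 5.23% to 10.5%. Fibril-forming genes gave 15.7% to 21.7% of it in WT saline and 20.8% to 30.2% in WT kainate libraries.

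The second question was whether loss of EZH2 in neurons changed the collagen genes. After saline, 1 of 43 passed (2.33%, where 13.5% of all genes were called, and 8.33% were called higher). This was Col6a1, higher in the libraries labelled EZH2nHom by 0.78 ± 0.25 on the log2 scale (edgeR adjusted p = 0.0466). The call was lost in 14 of the 19 fits without 1 library, with log2 differences of 0.64 to 0.83 and adjusted p of 0.0512 to 0.148 in them. After kainate, 1 of 43 passed (2.33%, where 7.61% of all genes were called, and 4.56% were called higher). This was Col27a1, higher by 1.54 ± 0.31 (edgeR adjusted p = 0.00741), and by 0.83 without EZH2nHom kainate replicate 2, still called. Its call was lost when only the 2 groups compared were fitted. The count after kainate was 5 without WT kainate replicate 4, 3 without EZH2nHom kainate replicate 4, and 2 without replicate 3 of either kainate group. No sample code prefix occurs in both genotypes, so genotype and prefix cannot be told apart. Xist reads were above the midpoint of their range in 2 of 5 WT saline and 0 of 5 EZH2nHom saline libraries. After kainate this held for 2 of 5 WT and 1 of 4 EZH2nHom libraries. With this split as a covariate Col6a1 after saline was not called, and Col27a1 after kainate was. The kainate calls of Col2a1 and Col7a1 in WT and of Col14a1 and Col8a2 in EZH2nHom were also lost with it. Small structural RNAs, at 1146 to 6762 CPM in EZH2nHom and 283 to 1700 CPM in WT libraries, also moved with genotype. With their share as a covariate Col6a1 after saline was at 1.23 and did not pass, while after kainate Col27a1 (1.64) and Col6a1 (0.90) were called. Red blood cell genes moved with genotype after kainate too: all 5 were lower in the libraries labelled EZH2nHom, by log2 differences of -2.51 to -1.95, with sums of 103 to 434 CPM there and 552 to 1974 CPM in WT kainate libraries. Their part in the Col27a1 difference was not tested. Of 5 markers of neighbouring thalamus and cortex, 1 was higher and 2 were lower in EZH2nHom after saline. These were Fezf2 (log2 difference 0.44), Tcf7l2 (-0.71) and Rorb (-0.52), and Rorb was also lower after kainate (-0.54). The part of these markers in the collagen differences was not tested.

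The third question was whether the kainate response differed between genotypes. By edgeR's quasi-likelihood test of the interaction, 0 of 43 collagen genes passed (0 by the DESeq2 Wald test), 2 had an unadjusted p under 0.05 and the smallest adjusted p was 0.465. Over all genes 0% were called by edgeR, 8.76% had an unadjusted p under 0.05, and the DESeq2 Wald test called 12 (0.0624%). Col27a1 had the smallest p, with a response larger in EZH2nHom by 1.28 ± 0.43 on the log2 scale (edgeR adjusted p = 0.465). Col25a1 fell further in EZH2nHom by a difference of -0.47 ± 0.21 (edgeR adjusted p = 0.561). For the genes called in 1 genotype alone, a difference between genotypes was therefore not shown.

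Genes that act on collagen were read from lists chosen by role. Over all genes, 9.47% were called higher and 2.57% lower in WT, and 14.3% higher and 11.8% lower in EZH2nHom, and the share of each list that rose is given beside its count for comparison. Of 20 genes that modify and fold procollagen chains in the endoplasmic reticulum, 8 rose in WT and 9 rose and 1 fell in EZH2nHom (median log2 change 0.32 and 0.42). The share that rose was 40% and 45% in WT and EZH2nHom. P4ha3, a prolyl hydroxylase subunit, rose by 2.74 and 2.99, Sparc, a collagen-binding chaperone, by 1.29 and 1.56, and Plod3, a lysyl hydroxylase, by 0.77 and 1.07. The gene that fell was P4ha2, at -0.43. Of 7 secretion genes, Creb3l1, a transcription factor of the secretory pathway, rose in both genotypes (0.95 and 1.21). In EZH2nHom 2 others rose, Creb3l2 among them (0.58), and Sec23a, a vesicle coat gene, fell (-0.39). Rises made up 14.3% and 42.9% of the list. Of 14 genes for processing and crosslinking outside the cell, 3 rose in WT, and 5 rose and 1 fell in EZH2nHom. The rises are 21.4% and 35.7% of the list. Bmp1, which trims procollagen ends, rose by 0.95 and 1.61, the lysyl oxidase Loxl3 by 0.92 and 1.31, and the crosslinking Tgm2 by 0.99 and 1.48.

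Of 11 tested collagen receptors, 7 rose in WT and 8 in EZH2nHom, and none fell. The share that rose was 63.6% and 72.7% in WT and EZH2nHom. Itga2, an integrin chain, rose by 1.99 and 2.05, Lair1, an inhibitory receptor of immune cells, by 1.62 and 1.78, and Ddr1, a receptor kinase, by 0.71 and 0.96. Of 11 cleavage and uptake genes, 2 rose in WT and 4 in EZH2nHom. Rises made up 18.2% and 36.4% of the list. Timp1, an inhibitor of the collagen-cutting metalloproteinases, rose by 6.52 and 7.61, and Mmp2, one of those proteinases, by 1.29 and 1.08. Among 16 other basement membrane genes, 2 rose in WT and 3 rose and 1 fell in EZH2nHom. The rises are 12.5% and 18.8% of the list. Both shares were near those of all genes. Lamb2, a laminin chain, rose by 0.55 and 0.87, and Lamb1 fell in EZH2nHom (-0.49). Of 15 collagen-binding matrix genes, 7 rose and 1 fell in WT, and 9 rose and 1 fell in EZH2nHom. The share that rose was 46.7% and 60% in WT and EZH2nHom. The proteoglycan Bgn rose by 2.39 and 2.40, the adhesive Fbln2 by 1.48 and 2.08, and Ogn fell (-0.998 and -1.16). Of 17 TGF-beta pathway genes, which include known inducers of collagen, 4 rose and 1 fell in WT and 10 rose and 1 fell in EZH2nHom. Rises made up 23.5% and 58.8% of the list. Tgfbr1 rose by 0.66 and 0.69, Ltbp1 by 0.73 and 1.26, and the ligand Tgfb1 by 1.59 and 2.08. In EZH2nHom kainate replicate 2 the TGF-beta pathway genes summed to 1012 CPM, against 397 to 448 CPM in the rest of that group. Its processing and crosslinking genes summed to 241 CPM (119 to 152 in the rest) and its collagen-binding genes to 624 CPM (361 to 458). List counts without that library are not given here.

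Markers of cell types and of neighbouring regions gave the following. Of 9 tested fibroblast and leptomeningeal markers, 0 were called in WT (2 at an unadjusted p under 0.05, 0 by DESeq2), and 1, Igf2, fell in EZH2nHom (-1.76). Their summed level was 95.3 to 176 CPM in WT saline and 71.2 to 134 CPM in WT kainate libraries, and 104 to 192 and 73.0 to 132 CPM in EZH2nHom. Endothelial markers summed to 97.6 to 178 CPM in every library. Oligodendrocyte precursor markers summed to 197 to 234 CPM in WT saline and 337 to 522 CPM in WT kainate libraries, without overlap. In EZH2nHom they summed to 195 to 250 CPM after saline and 147 to 444 CPM after kainate. Without kainate replicate 2, which held the 147 CPM, the EZH2nHom kainate range was 359 to 444 CPM, above the saline range. Of the 5, Gpr17 and Neu4 rose and Pdgfra fell in WT, and Neu4 rose in EZH2nHom. Of 5 microglial markers, 5 rose in WT and 4 in EZH2nHom, from 311 to 349 and 255 to 301 summed CPM after saline to 549 to 1457 and 587 to 1319 after kainate. Of 5 astrocyte markers 2 rose in each genotype. Of 4 tested smooth muscle markers Tagln rose and Myh11 fell in each. Of 5 red blood cell genes 5 rose in WT and 0 passed in EZH2nHom (edgeR; 0 at an unadjusted p under 0.05 and 0 by DESeq2). Of 5 ependymal markers 0 passed in either genotype (2 in EZH2nHom at an unadjusted p under 0.05, 0 by DESeq2). Of 5 markers of neighbouring thalamus and cortex, Lhx9 fell in both genotypes and Fezf2 fell in EZH2nHom. With the fibroblast and leptomeningeal marker level as a covariate, Col11a1, Col4a1, Col4a2, Col12a1, Col13a1, Col14a1, Col8a2 and Col6a5 were no longer called in EZH2nHom, nor Col2a1 and Col7a1 in WT. Those EZH2nHom calls, except that of Col6a5, were also lost with the choroid plexus marker level as a covariate. Fibroblast and leptomeningeal markers summed to 149 to 192 CPM in the 5 saline libraries high in choroid plexus markers and 95.3 to 155 CPM in the other 5. The part of the other cell types in this paragraph in the collagen changes was not tested.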

How the data were processed

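Ribosomal RNA-depleted total RNA was sequenced from 19 libraries, and the authors deposited raw read counts per Ensembl gene together with an annotated table that gave the gene symbols. The submitters' processing notes name mm39, DESeq2 and DESeq; aligner, counter, annotation and strand setting are not given in the sources used here. Counts were fitted with edgeR 4.0.16 in R 4.3.3 (filterByExpr, TMM, robust quasi-likelihood, 1 mean per group over all libraries, two-sided), and p-values were adjusted by Benjamini-Hochberg across the 19234 genes tested. CPM used TMM-scaled library sizes and 24496685 to 43948317 reads per library; exon lengths came from a GRCm38 annotation matched by gene ID. The SE of each edgeR log2 change was derived from its test, as the absolute log2 change divided by the square root of the F statistic. Chain ratios used log2 CPM with a prior count of 2 and exact permutation tests (scipy 1.17.1). Scripts were tested on simulated data. The collagen genes, their roles and the pathway and marker lists were chosen with earlier results of these data known. Every collagen gene called in any contrast is named, with its chain partners, the 5 highest and 5 lowest per kilobase in WT saline, genes whose groups did not overlap, and up to 3 genes per pathway list with the smallest p in either kainate contrast. P4ha2, Ogn and Tgfb1 fall outside this rule and were chosen after their values were seen.

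Replicate numbers come from the titles. Over genes averaging at least 5 CPM, same-numbered WT libraries deviated together (correlations of 0.22 to 0.57 in 5 pairs), so the block is given for WT beside each call it changes. Over all tested genes these were 0.08 to 0.31. Differently numbered WT libraries gave -0.54 to 0.39 over genes averaging at least 5 CPM, so the pairing is inferred and some unpaired libraries correlated as highly. In EZH2nHom the correlations of same-numbered libraries were -0.03 to 0.19 by the titles' numbers, and -0.12 to 0.21 by those of the count table, which are 1 higher for the kainate libraries. Neither was taken as pairs. Alternatives were DESeq2 1.42.0 (its size factors and its Wald test), other filters, prior counts and thresholds, separate fits, GC and length correction, covariates, blocks and leaving out each library. The covariates for choroid plexus, fibroblast and Xist reads and the block by the count table's numbers were chosen after seeing the data.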

Additional observations from a re-analysis of the deposited data

Results flagged for a closer look

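A library was singled out where the highest or lowest of its group stood far from the rest by Dixon's criterion at the 95% level; 92 gene and group combinations were examined, and chance alone marks about 1 in 20. Of the 8 found, 6 were in EZH2nHom kainate replicate 2. There Col4a1 was at 146.9 CPM (other 3 libraries 40.3 to 47.2), Col12a1 at 90.4 (16.4 to 23.3), Col4a2 at 60.6 (22.5 to 29.0), Col27a1 at 30.9 (8.06 to 9.40) and Col5a3 at 27.7 (3.14 to 4.83), all the highest of the group, while Col4a6, at 5.69 (12.3 to 13.2), was the lowest. Col6a5 was at 3.92 CPM in WT kainate replicate 4, against 1.33 to 1.99 in the other 4 libraries. Col9a2 was at 1.66 CPM in WT saline replicate 5, against 1.45 to 1.48 in the other 4.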

How the results depend on the processing

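No collagen gene called in any contrast changed direction under the alternatives run. For the 12 WT calls, 320 of 384 alternative fits kept the call and 64 lost it; for the 21 EZH2nHom calls, 543 of 671 kept it and 128 lost it. In EZH2nHom 9 calls held in every alternative run there. Among the WT calls, 3 (Col20a1, Col4a6 and Col25a1) were lost only under the prefix block in 6 libraries, an alternative not run in EZH2nHom. Those 6 held saline replicates 2 and 4 and kainate replicates 1 to 4, which leaves that fit little power. WT count (12): 3 with structural RNA as a covariate, 0 with the sample code prefix as a block in 6 libraries, 7 at adjusted p under 0.01, and 7 to 16 when each library was left out. EZH2nHom count (21): 13 with the fibroblast marker level as a covariate, 12 at adjusted p under 0.01, and 14 to 21 without each library. With the title's replicate number as a replicate block, 15 genes were called in WT (13 higher, 2 lower) and 16 in EZH2nHom (12 higher, 4 lower), where the numbers are not taken as pairs. The count table and descriptions number the EZH2nHom kainate libraries 2 to 5 where the titles have 1 to 4; with those numbers as a replicate block, chosen after seeing the data, 11 were called in EZH2nHom (9 higher, 2 lower). Genotype after saline (1): 0 with DESeq2 size factors, no filter on low counts, GC and length correction, the structural RNA, fibroblast or Xist covariate, or adjusted p under 0.01, 3 when only those groups were fitted, and 0 to 1 without each library. Genotype after kainate (1): 3 by the DESeq2 Wald test, 2 with structural RNA as a covariate, 0 when only those groups were fitted, and 1 to 5 without each library. The interaction gave 0 calls in every alternative, 0 to 0 without each library. The chain ratios also gave 0, but the smallest p that these group sizes allow over 26 tests makes that nearly fixed by the design, so it says nothing about stability. The causes of these shifts were not tested. Genes read at under about 1 CPM, such as Col2a1 and Col7a1, rest on few reads.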

Other observations

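Without Col25a1 and Col19a1, the pair that fell in both genotypes and was set aside after its values were seen, the summed level of the remaining collagen genes was 183 to 292 CPM in WT saline and 247 to 502 CPM in WT kainate libraries. In EZH2nHom libraries it was 210 to 332 CPM after saline and 338 to 616 CPM after kainate. The EZH2nHom ranges did not overlap and the WT ranges did. Neighbours on a chromosome were not always called together. On chromosome 1, Col19a1 fell in both genotypes while Col9a1, beside it, did not pass in either. Col3a1 and Col5a2, also adjacent, were both called in WT, but in EZH2nHom Col5a2 was called and Col3a1 was not.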
